A study of Mus musculus with 6 samples.

Results

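Inhibitory receptors are surface proteins that damp the signals a T cell receives through its antigen receptor, and Tox and Tox2 are DNA-binding proteins of the HMG-box family that T cells make under persistent antigen signals. The genes described here are Pdcd1, Lag3, Havcr2, Tigit, Btla, Cd200, Cd160, Tox and Tox2. They were taken by name: every probe set whose only gene symbol in the platform annotation is one of these was kept. That gave 14 probe sets for 8 of the 9 genes, 1 each for Pdcd1, Lag3, Havcr2, Btla and Cd200, 4 for Cd160, 3 for Tox and 2 for Tox2, on an array that names 18194 genes. Tigit had no probe set under that symbol and is not analysed here.

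Pdcd1 encodes PD-1, which on binding its ligands brings phosphatases to the antigen receptor and restrains its signal. Lag3 is a CD4-like receptor for MHC class II, and Havcr2 encodes TIM-3, a receptor of effector T cells and phagocytes. Btla and Cd160 are receptors for HVEM, a member of the TNF receptor family, while Cd200 is a ligand of an inhibitory receptor on myeloid cells. Regulatory T cells carry several of these molecules, and in chronically stimulated CD8 T cells Tox supports the expression of Pdcd1 and other inhibitory receptors.

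The arrays measured total RNA of mouse CD4+YFP+ T cells sorted from lymph nodes. All the mice carried FoxP3-GFP-hCre, in which the regulatory T cell gene Foxp3 drives a Cre recombinase fused to GFP, and ROSA26R-YFP, a reporter that turns on in any cell where Cre has acted and stays on in its progeny. The control mice (Het, 3 arrays, lettered A to C) were Dicerwt/lox, so they too can lose the lox copy of Dicer, and the KO mice (3 arrays, A to C) were Dicerlox/lox. Dicer cuts the precursors of microRNAs, and comparing KO with Het asks how messenger RNAs differ in these cells once it is deleted. The labels do not say whether the 3 arrays of a group come from separate animals, so p-values rest on a spread between arrays that may be only technical. YFP records past Cre activity, so a sorted cell need not express Foxp3 when it is sorted.

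Median intensities per array lay between 58.1 and 61.5, and the number of arrays limits the precision. Foxp3 read 9960, 8945 and 9769 on Het arrays A to C against 5453, 9417 and 5420 on the KO arrays (log2 difference -0.55, limma adjusted p = 0.285), and the Dicer1 probe sets gave -0.03 and -0.52 (adjusted p = 0.891 and 0.145). The position of these probes with respect to the stretch that Cre removes is not known here, so the values are no check of the genotype. Among alpha beta T cell markers 4 of 5 were measured, and they summed to 82750 to 88180 in Het and 71240 to 81050 in KO. All 5 regulatory T cell markers (60360 to 67250 and 70490 to 76250) and all 5 follicular helper markers (17390 to 22370 and 21000 to 22810) were measured. The regulatory T cell markers went both ways. Ctla4, Il2ra and Tnfrsf18 gave log2 differences of 0.76, 0.67 and 0.20, while Foxp3 and Ikzf2 gave -0.55 and -0.24. They did not pass (limma, adjusted p = 0.0686 to 0.351). Markers of other cells were unevenly spread. The 6 of 7 B cell markers measured summed to 1076 to 2510 in Het and 1915 to 5069 in KO, with Pax5 under an intensity of 16 on all arrays. Cd22 made up most of each KO sum, at 1063, 2980 and 1312 on KO arrays A to C, and gave a log2 difference of 1.37. Ms4a1, Cd79b, Cd79a and Ebf1 gave 1.15, 0.42, 0.23 and -0.08 (limma, adjusted p = 0.173 to 0.920 with Cd22). Both CD8 T cell markers summed to 651 to 2257 and 636 to 4415. The 4 of 5 NK cell markers measured summed to 1037 to 1769 and 1642 to 5543, with Ncr1 and Klra1 under 16 on all arrays, and the 5 myeloid markers to 306 to 618 and 528 to 1884, with Itgam under 16 on all arrays. KO B was the highest array in each of these 4 sums, and Het B the highest Het array. Of the 3 gamma delta T cell markers Sox13 was measured, at 117 to 158 in Het and 108 to 121 in KO.

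In KO cells Pdcd1 was lower, at 0.441 of its Het level, and so was Tox, at 0.461 on its brightest probe set, while Lag3, Havcr2 and Tox2 read higher on every KO array than on any Het array without passing the test. Tox and Tox2 lay on opposite sides of Het. Btla overlapped between the groups, Cd200 read lower on every KO array without passing, and Cd160 was split among the KO arrays. Of the 12 probe sets bright enough to test (log2 intensity above 4, an intensity of 16, on at least 3 of the 6 arrays), 3 were called lower in KO at a limma adjusted p under 0.05 and 0 higher (8 of the 12 had an unadjusted p under 0.05). The number called was 0 with both B arrays left out (limma; 10 had an unadjusted p under 0.05) and 0 to 1 with any single array left out. Over all 29507 probe sets tested 0.668% were called lower and 1.11% higher. Of these 29507, 5630 had an unadjusted p under 0.05 by limma, or 5274 without both B arrays. In 5 of the 12 every KO array lay below every Het array, against 14.9% of all probe sets tested, and in 3 every KO array lay above, against 11.3%. The genes were listed with earlier results of these data known, so these shares describe the list and are no test of it. The median log2 difference of the 12 was -0.52, beside -0.03 over all probe sets tested, with 4 positive and 8 negative. Tox and Cd160 entered that median with several probe sets each, all of them negative, so these genes weigh more in it than the others. By gene, on the brightest probe set, 4 were positive and 4 negative. RNA of a sorted population was measured, so fewer cells that express a gene and less RNA per cell cannot be told apart.

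**Figure D1:**
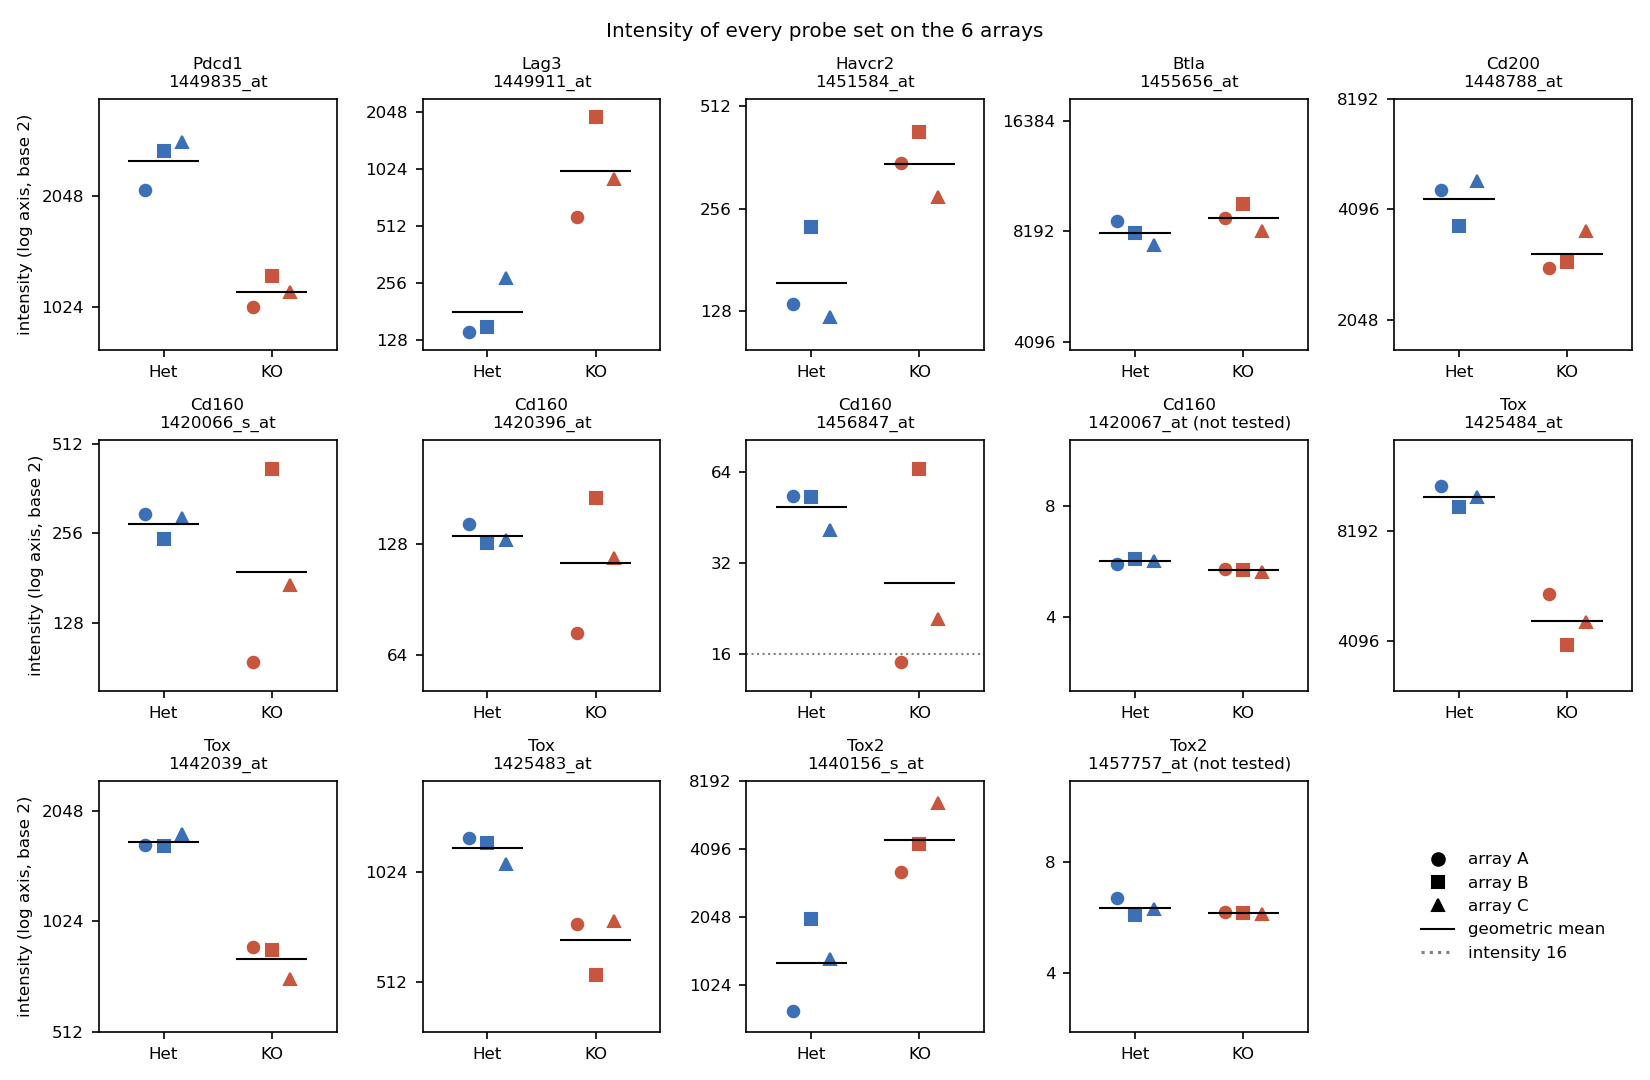
Intensity of each of the 14 probe sets on the 6 arrays, on a log axis in base 2 with its own range in each panel; blue symbols are Het and red symbols KO, the shape gives the array letter, the bar is the geometric mean and the dotted line an intensity of 16. The KO arrays lie below the Het arrays for Pdcd1, Cd200 and the 3 Tox probe sets and above them for Lag3, Havcr2 and the brighter Tox2 probe set, while KO B stands above KO A and KO C for the 3 brighter Cd160 probe sets. On the dimmest Cd160 probe set, under 16 on all arrays, the KO arrays lie below the Het arrays.

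Where RefSeq gave a promoter window (GRCm38.p6), the 250 bases before the annotated start of transcription were read for the genes whose arrays separated by genotype. Windows were matched for 7 of the 9 genes, Pdcd1, Havcr2, Tigit, Btla, Cd200, Cd160 and Tox2. Both strands were searched for the NFAT core GGAAA, the AP-1 site TGANTCA, the STAT site TTCNNNGAA, the Runx site TGTGGT and the Egr core GTGGGCG, since these factors act downstream of antigen receptor or cytokine signals. The sequences run 5′ to 3′ on the strand of the gene and end just before the start, and capitals mark every match, with overlapping matches joined. They are shown for Pdcd1, which was called lower, and for Cd200, Havcr2 and Tox2, whose KO arrays lay all below (Cd200) or all above (Havcr2, Tox2) the Het arrays without passing the test. Pdcd1 lies at chr1:94052554-94052803 on the minus strand, Cd200 at chr16:45409054-45409303 on the minus strand and Havcr2 at chr11:46454681-46454930 on the plus strand. Tox2 has 5 annotated starts, and the most upstream (chr2:163202877-163203126) and a downstream one (chr2:163225203-163225452), both on the plus strand, are given.
Pdcd1: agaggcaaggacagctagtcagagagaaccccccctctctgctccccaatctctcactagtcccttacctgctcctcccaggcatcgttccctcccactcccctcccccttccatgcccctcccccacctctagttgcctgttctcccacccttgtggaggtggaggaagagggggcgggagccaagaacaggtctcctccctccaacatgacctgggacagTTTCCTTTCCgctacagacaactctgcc
Cd200: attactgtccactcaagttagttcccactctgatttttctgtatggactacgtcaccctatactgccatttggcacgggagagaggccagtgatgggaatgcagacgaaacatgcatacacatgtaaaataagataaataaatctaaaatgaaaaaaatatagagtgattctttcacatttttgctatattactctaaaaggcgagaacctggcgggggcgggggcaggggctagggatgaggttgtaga
Havcr2: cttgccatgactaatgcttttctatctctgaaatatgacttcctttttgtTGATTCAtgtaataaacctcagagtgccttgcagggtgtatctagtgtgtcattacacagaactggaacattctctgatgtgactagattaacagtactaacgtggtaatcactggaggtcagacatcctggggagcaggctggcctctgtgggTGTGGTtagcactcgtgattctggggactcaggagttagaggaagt
Tox2, upstream start: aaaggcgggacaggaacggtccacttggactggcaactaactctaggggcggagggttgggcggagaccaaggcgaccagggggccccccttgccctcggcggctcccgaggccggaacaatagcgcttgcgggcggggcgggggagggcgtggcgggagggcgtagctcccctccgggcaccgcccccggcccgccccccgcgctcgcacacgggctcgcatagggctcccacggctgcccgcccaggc
Tox2, downstream start: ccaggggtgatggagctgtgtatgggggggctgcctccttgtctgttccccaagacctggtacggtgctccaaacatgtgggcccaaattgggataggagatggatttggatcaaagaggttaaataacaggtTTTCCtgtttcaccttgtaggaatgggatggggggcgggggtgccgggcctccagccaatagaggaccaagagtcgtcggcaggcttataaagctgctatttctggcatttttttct

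The Pdcd1 window held 2 matches of the NFAT core, beginning 28 and 23 bases before the start, and 0 of the other 4 motifs. That core stood in 55.6% of all 32851 windows of this length, so its presence is common. The Havcr2 window held 1 AP-1 match, 200 bases before the start, and 1 Runx match, 46 bases before it, motifs that 6.75% and 14% of all windows held. None of the 5 motifs was found in the Cd200 window or the upstream Tox2 window, and the downstream Tox2 window held 1 NFAT core, 117 bases before the start. STAT and Egr matches, found in 7.02% of all windows each, were in none of the 5 sequences printed. GC content was 60.4% for Pdcd1, 42.4% for Cd200, 44.8% for Havcr2 and 75.2% for the upstream Tox2 window, beside a median of 52.4% over all windows. A match is a stretch of letters and was not tested as a binding site.

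Pdcd1 was measured by 1 probe set (1449835_at). It read 2122, 2719 and 2870 on Het arrays A to C against 1021, 1237 and 1125 on the KO arrays. The highest KO array lay well under the lowest Het array, and the KO arrays spread less than the Het arrays. The Het mean was 2570 ± 396 and the KO mean 1128 ± 108 (SD, n = 3), and the log2 difference was -1.18 ± 0.15 (SE) with a 95% interval of -1.54 to -0.82 (limma, adjusted p = 0.0302), so KO stood at 0.441 of Het. KO B, the array with the highest sums of markers of other cells, read highest among the KO arrays, and without both B arrays the difference was -1.20 (adjusted p = 0.155). The call needed all 6 arrays. Leaving out Het array A, B or C gave an adjusted p of 0.0877, 0.0947 or 0.102, and leaving out KO array A, B or C gave 0.0783, 0.0699 or 0.109, with differences of -1.31 to -1.10.

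Tox, the HMG-box factor that directs CD4 T cell development in the thymus, had 3 probe sets, which all separated the groups. The brightest (1425484_at) read 10838, 9483 and 10083 on Het arrays A to C against 5507, 3986 and 4610 on the KO arrays. The next (1442039_at) read 1650, 1643 and 1770 (Het) against 869.6, 857.3 and 712.1 (KO), a tight cluster of arrays in each genotype. The dimmest (1425483_at) read 1265, 1225 and 1071 (Het) against 736.2, 534.2 and 752.1 (KO). On each of the 3 the highest KO array lay below the lowest Het array.

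The Tox differences were -1.12 ± 0.14, -1.06 ± 0.11 and -0.83 ± 0.16 on the log2 scale (SE, n = 3), in that order. Their adjusted p-values by limma were 0.0302, 0.0243 and 0.0709, so the first and second were called and the dimmest was not. KO stood at 0.461, 0.480 and 0.563 of Het, with 95% intervals of 0.363 to 0.585, 0.400 to 0.576 and 0.426 to 0.743 that overlap one another. The order of the KO arrays differed between probe sets: KO A was the highest on the brightest, and KO C was the lowest on the second and the highest on the dimmest. Probe sets of 1 gene share their RNA and are not replicates. For the brightest probe set, leaving out Het array A, B or C gave an adjusted p of 0.124, 0.0875 or 0.109. Leaving out KO B or KO C gave 0.0682 or 0.110, and leaving out KO A kept it under the threshold (0.0442). For the second probe set the 6 values ran from 0.0516 (KO A left out) to 0.100 (Het A left out). The differences without 1 array were -1.24 to -1.01 and -1.11 to -0.97, and without both B arrays they were -1.05 and -1.12 (adjusted p = 0.146 for each).

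Tox2, the paralogue of Tox that is best known from follicular helper T cells, went the other way. Its brighter probe set (1440156_s_at, whose suffix marks probes shared by several transcripts) read 784.9, 2011 and 1333 on Het arrays A to C against 3231, 4292 and 6572 on the KO arrays. Every KO array was above every Het array, with a wide spread within both groups. The means were 1376 ± 614 (SD, n = 3) and 4698 ± 1707, a log2 difference of 1.81 ± 0.42 (SE; 95% interval 0.78 to 2.85) that did not pass (limma, adjusted p = 0.0988). Without both B arrays it was 2.17 (adjusted p = 0.192). The other Tox2 probe set (1457757_at) read 5.73 to 6.4 in Het and 5.79 to 5.87 in KO, below the level needed for a test. Tox4, a relative expressed in most tissues, read 4304, 4072 and 4321 (Het) against 4128, 4570 and 4178 (KO) (log2 0.02, 95% interval -0.18 to 0.22, adjusted p = 0.919). Tox3 did not reach the level for a test. The follicular helper markers beside these values gave log2 differences of -0.41 for Cxcr5, -0.44 for Bcl6, 1.56 for Il21, 0.46 for Icos and -0.49 for Sh2d1a, and 0 of the 5 passed (limma, adjusted p = 0.0511 to 0.734). Their part in the Tox2 values was not tested.

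Lag3 had the largest difference among the 8 genes measured. Its probe set (1449911_at) read 141.1, 150.2 and 272.9 on Het arrays A to C against 569.2, 1911 and 903.9 on the KO arrays. The lowest KO array, KO A, lay well above the highest Het array, Het C, and KO B was the highest of all. The log2 difference was 2.47 ± 0.50 (SE, n = 3; 95% interval 1.23 to 3.71), a KO to Het ratio of 5.54 that did not pass (limma, adjusted p = 0.0766). KO B also had the highest CD8, NK, B cell and myeloid sums, and without KO B the difference was 2.0 (adjusted p = 0.102), or 1.87 without both B arrays (adjusted p = 0.199). CD8 T cells and NK cells can express Lag3. The CD8 sums of KO A (670) and KO C (636) lay below that of Het B (2257), whose Lag3 value was 150.2. The NK sum of Het B (1769) lay between those of KO A (2062) and KO C (1642). Nkg7 made up most of these sums, at 1176 on Het B, 1943 on KO A and 1527 on KO C. Klrd1 differed from it, at 566 on Het B against 91.9 on KO A and 89.0 on KO C. The part of CD8 T cell and NK cell RNA in the Lag3 values was not tested.

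Havcr2 (1451584_at) read 134.1, 226.8 and 122.7 on Het arrays A to C against 348.2, 430.8 and 277.1 on the KO arrays. The B array was the highest in each genotype, and the lowest KO array, KO C, lay above Het B. The log2 difference was 1.16 ± 0.29 (SE, n = 3; 95% interval 0.45 to 1.87), a ratio of 2.23 that did not pass (limma, adjusted p = 0.112). Macrophages and dendritic cells also express Havcr2. Of the 5 myeloid markers, Lyz2 read 50.6, 381.4 and 97.4 (Het) against 231.6, 1408 and 440.8 (KO). Cd68 read 37.7, 28.4 and 64.0 (Het) against 84.1, 231.3 and 186.1 (KO). Csf1r, a defining receptor of macrophages, read 152.1 to 163.5 in Het and 156.1 to 174.4 in KO. Adgre1 read 45.8 to 50.3 in Het and 50.2 to 64.3 in KO, and Itgam was under 16 on all arrays. Lyz2, Cd68 and Havcr2 were all highest on KO B, and without both B arrays the Havcr2 difference was 1.28. The part of myeloid RNA in it was not tested.

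**Figure D2:**
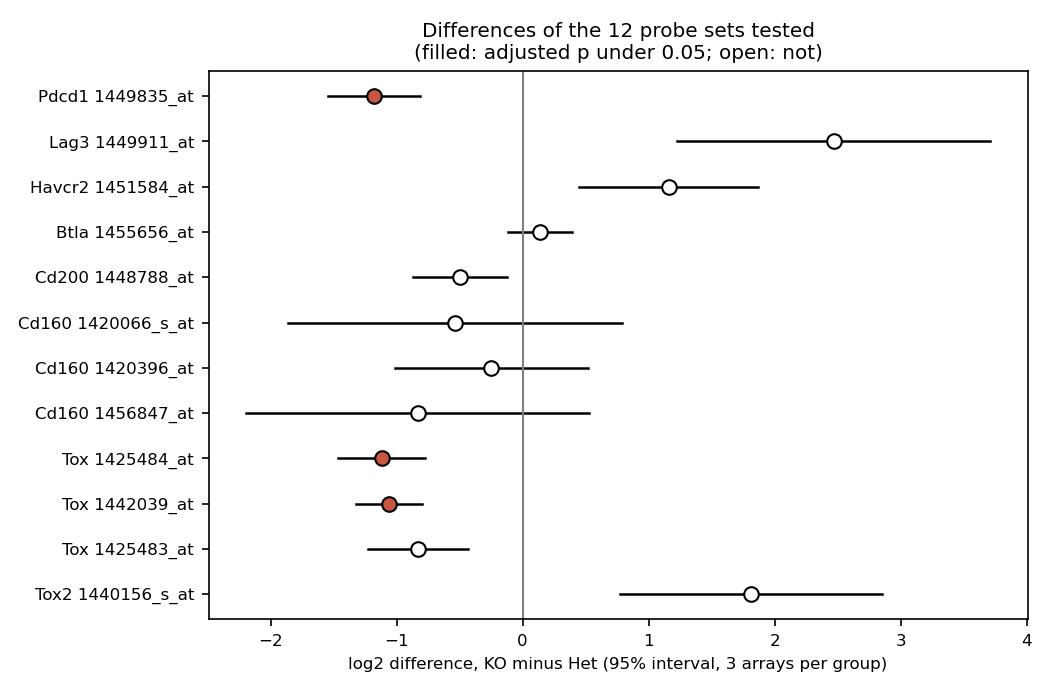
Log2 difference, KO minus Het, of the 12 probe sets tested, with the 95% interval of the limma fit as a bar; filled points passed an adjusted p of 0.05. Pdcd1 and the 2 brighter Tox probe sets passed below 0, Btla straddles 0 with the narrowest interval, and the Cd160 intervals are wide.

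Cd200 (1448788_at) read 4632, 3694 and 4893 on Het arrays A to C against 2834, 2938 and 3570 on the KO arrays. The groups did not overlap, but KO C and Het B lay close together. The log2 difference was -0.50 ± 0.15 (SE, n = 3; 95% interval -0.87 to -0.12), which did not pass (limma, adjusted p = 0.164), and KO stood at 0.708 of Het. B cells express Cd200. Het B and KO B had the highest B cell sums of their groups, and Cd200 was highest on Het C and KO C. The part of B cell RNA in these values was not tested.

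Btla (1455656_at) read 8710, 8110 and 7499 on Het arrays A to C against 8915, 9715 and 8192 on the KO arrays. The groups overlapped, with KO C between Het A and Het B. The log2 difference was 0.14 ± 0.10 (SE, n = 3; limma, adjusted p = 0.526), and the 95% interval of the ratio, 0.923 to 1.32, spans 1. B cells express Btla as well, and KO B was the highest array, a link that was not tested. Btla and Cd200 are neighbours on chromosome 16, with 0 protein-coding genes and 2 noncoding RNA genes annotated between them (GRCm38.p6). The difference between their responses was not tested.

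Cd160, a receptor of cytotoxic lymphocytes, separated the KO arrays from one another. Its brightest probe set (1420066_s_at) read 298.2, 245.2 and 287.7 on Het arrays A to C against 94.6, 421.7 and 172.5 on the KO arrays. A second (1420396_at) read 145.5, 128.9 and 131.8 (Het) against 73.3, 171.4 and 117.8 (KO), and the dimmest one tested (1456847_at) read 53.3, 53.0 and 41.3 (Het) against 15.1, 65.3 and 21.0 (KO). On all 3 KO B was above every Het array while KO A and KO C were below every Het array. The fourth (1420067_at) read 5.29 to 5.75 on the 6 arrays and was not tested.

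The Cd160 differences were -0.54 ± 0.53, -0.25 ± 0.31 and -0.83 ± 0.55 (SE, n = 3; limma, adjusted p = 0.646, 0.720 and 0.480), and each interval spans 0. KO B was also the array with the highest Klrd1 (1621, against 69.2 to 566 in Het and 91.9 and 89.0 in KO A and C), Cd8a (1301) and Cd8b1 (3114). Without both B arrays the differences were -1.20, -0.58 and -1.40 (adjusted p = 0.232, 0.388 and 0.158). Without KO A they were -0.03, 0.072 and -0.40, so the direction of the second turned on that array. Het B had higher Klrd1 and Cd8a than Het A and Het C, at 566 and 859.8, but read no higher than Het A on any of the 3 Cd160 probe sets. The part of CD8 T cell and NK cell RNA in these values was not tested.

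**Figure D3:**
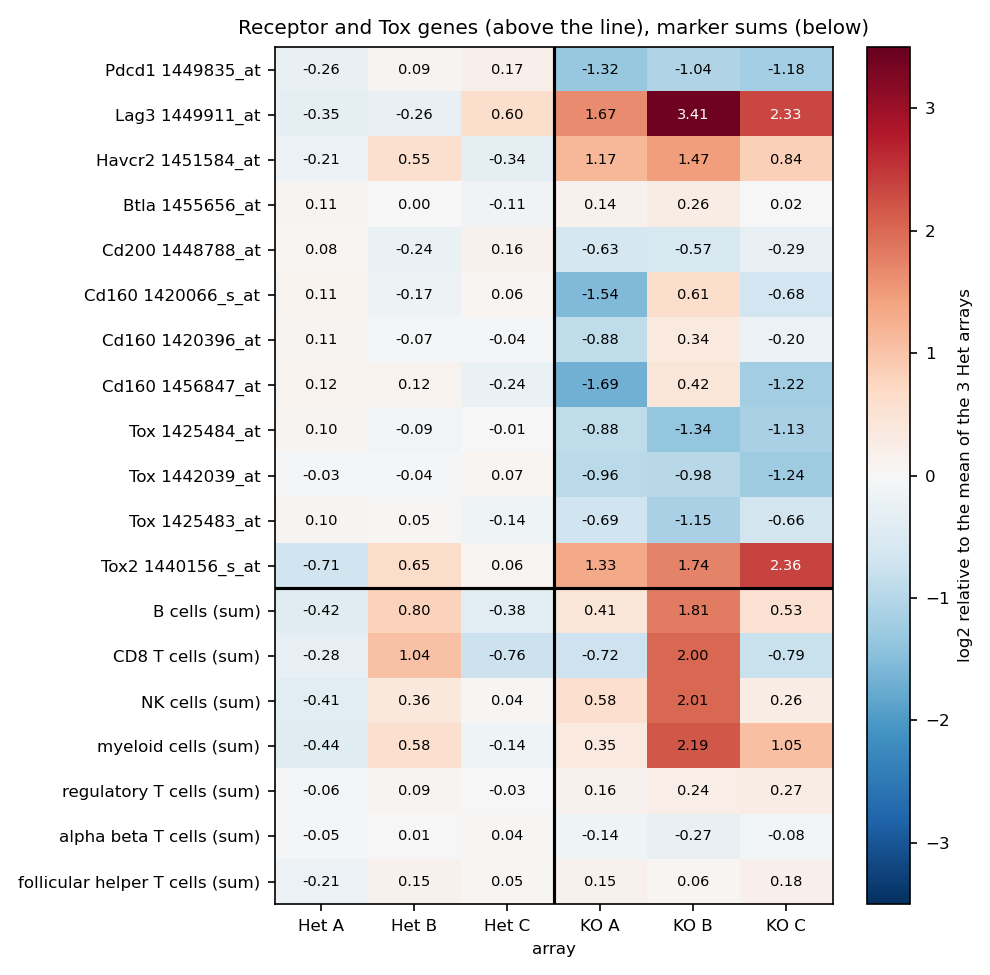
Log2 value on each array relative to the mean of the 3 Het arrays, for the 12 probe sets tested (above the line) and for summed marker intensities of other cells and of the sorted cells (below it). KO B has the highest B cell, CD8, NK and myeloid sums (1.81, 2.0, 2.01 and 2.19) and is the array on which Cd160 is high, while Pdcd1 and Tox are low on all 3 KO arrays.

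The other genes of these pathways were taken from lists of 71 genes, of which 62 had a tested probe set with a single symbol, read on the brightest one. Of the 62, 1 was higher (Tbx21) and 2 were lower (Egr2 and Egr3), while 0.956% of all 13280 genes were lower and 1.37% were higher at the same threshold. At an unadjusted p under 0.05 (limma) there were 21 of the 62, beside 2959 of all 13280 genes. The median log2 difference of the 62 was 0.04, beside -0.03 over all genes tested.

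Among ligands and binding partners 0 of 11 passed (limma; 4 at an unadjusted p under 0.05), with a median of 0.07. Cd274, the gene of the PD-1 ligand PD-L1, read 1347, 1474 and 1487 on Het arrays A to C against 2211, 2705 and 3875 on the KO arrays (log2 0.99 ± 0.21, adjusted p = 0.0853). The groups did not overlap, and Cd274 lay opposite to Pdcd1. Lgals3, a galectin that binds LAG-3, read 254.9, 1072 and 1470 (Het) against 1908, 6136 and 4856 (KO) (log2 2.38, adjusted p = 0.191). Cd200r1, the receptor for Cd200, read 2613, 1445 and 1463 (Het) against 1321, 637.4 and 877.2 (KO) (log2 -0.97, adjusted p = 0.225). The other PD-1 ligand gene, Pdcd1lg2, gave -0.27 and Tnfrsf14, which encodes HVEM, gave 0.99 (adjusted p = 0.349 and 0.352).

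Among 13 related receptors measured 0 passed (limma; 3 at an unadjusted p under 0.05), with a median of -0.02. Ctla4, the inhibitory receptor that competes with CD28 for its ligands, read 15799, 20661 and 17155 on Het arrays A to C against 28035, 28046 and 34748 on the KO arrays (log2 0.76 ± 0.15, adjusted p = 0.0686). Its 3 KO arrays lay above all Het arrays, opposite to Pdcd1. Klrg1, an inhibitory lectin receptor of differentiated T cells, gave 1.19 and Icos, a costimulator, 0.46 (adjusted p = 0.149 and 0.181). Cd96, which shares a ligand with Tigit, gave -0.51 and Cd226 gave -0.22 (adjusted p = 0.300 and 0.338).

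In proximal inhibitory signalling 0 of 13 passed (limma; 3 at an unadjusted p under 0.05), with a median of 0.11. Sh2d1a, the adaptor SAP, read 5847, 5720 and 5799 (Het) against 4229, 3842 and 4294 (KO) (log2 -0.49, adjusted p = 0.0511), a tight separation just short of the threshold. Ptpn6 and Ptpn11, the genes of the phosphatases SHP-1 and SHP-2, gave -0.24 and 0.16 (adjusted p = 0.166 and 0.439), and Ptpn22 gave 0.48 (adjusted p = 0.184).

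Of 19 transcription factors measured, from a list of factors linked to chronic antigen receptor signals, 1 was called higher and 2 lower. Tbx21, the gene of T-bet, rose (log2 2.13 ± 0.27, adjusted p = 0.0317), and Egr2 (-1.11 ± 0.16, adjusted p = 0.0424) and Egr3 (-0.64 ± 0.09, adjusted p = 0.0373), which antigen receptor signals induce, fell (limma; SE, n = 3). Egr2 and Egr3 each had another probe set tested, which did not pass. It gave -0.77 for Egr2 and, on a dim probe set, -0.20 for Egr3 (limma, adjusted p = 0.0527 and 0.340). The remaining 16 factors did not pass (8 of them at an unadjusted p under 0.05), and the median was 0.31. The NFAT factors, which calcium signals from the antigen receptor activate, did not pass. Nfatc1, Nfatc2 and Nfatc3 gave -0.22, 0.31 and 0.11 (adjusted p = 0.262, 0.216 and 0.476). Nfatc1 had 5 probe sets tested, and all but the brightest were positive, at 0.08 to 0.23 (limma, adjusted p = 0.391 to 0.906). The Nr4a genes, which lie with Tox in the programme of chronic stimulation, gave 0.23 for Nr4a1, 0.35 for Nr4a2 and -0.24 for Nr4a3, with adjusted p of 0.818 to 0.858. Their KO arrays were scattered: Nr4a1 read 3386, 4621 and 6146 (Het) against 4782, 3218 and 10082 (KO). Eomes, a T-box factor of cytotoxic and memory cells, gave 2.93 on its brightest probe set and 1.55 on the other (limma, adjusted p = 0.102 and 0.151). On the brightest it read 79.4, 306.7 and 194.6 on Het arrays A to C against 901.6, 2860 and 816.4 on the KO arrays. Tbx21 read 383.1, 564.7 and 454.4 (Het) against 1698, 2925 and 1668 (KO). Both genes were highest on the B array of each genotype, as the CD8 and NK sums were. Without both B arrays Tbx21 gave 2.01 (limma, adjusted p = 0.137). The part of CD8 T cell and NK cell RNA in these 2 genes was not tested. Without any 1 of the 6 arrays the adjusted p of Tbx21, Egr2 and Egr3 was 0.0584 to 0.148, at differences of 1.87 to 2.28, -1.25 to -1.0 and -0.68 to -0.58.

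Of 7 antigen receptor genes kept for reference 5 were measured and 0 passed (limma; 0 at an unadjusted p under 0.05). Cd3e gave -0.11, Cd3g -0.17, Cd247 0.01, Zap70 0.06 and Lat -0.05, with a median of -0.05. These values are from the brightest probe set of each gene.

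**Figure D4:**
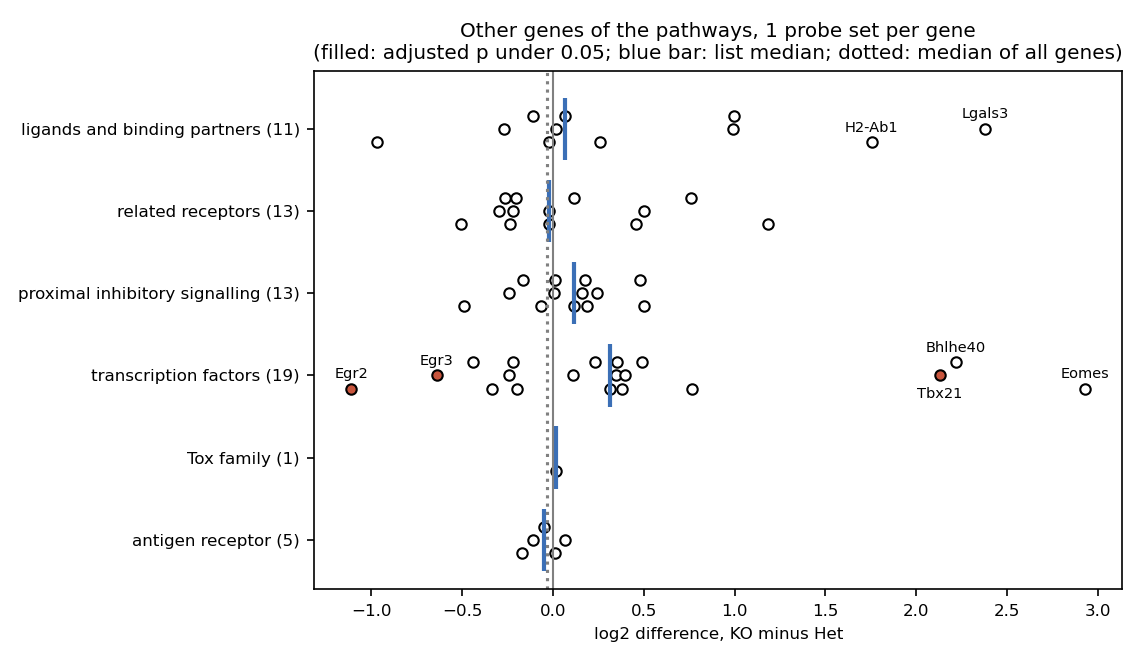
Log2 difference, KO minus Het, of the 62 other genes measured, by list (number measured in brackets), with 1 point per gene on its brightest probe set; filled points passed an adjusted p of 0.05, the blue bar is the list median and the dotted line the median of all genes. Tbx21 passed above 0 and Egr2 and Egr3 below it.

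The genes whose pattern over the 6 arrays was most like that of Pdcd1 or Tox were ranked by the mean absolute difference of log2 values, each gene first centred on its own mean. For Pdcd1 they were Armcx4 (0.10), Niban1 (0.11), Top1mt (0.11), Bivm (0.13) and Guk1 (0.13). For Tox, on its brightest probe set, they were Ttll1 (0.09), Prmt2 (0.09), Rpl7l1 (0.10), Igf1r (0.10) and Nrp1 (0.10), and Rpl7l1 and Nrp1 were also the closest to its second probe set (0.08 and 0.09). All 10 had a lower mean in KO, by log2 differences of -1.26 to -0.95. That follows from how they were picked, since Pdcd1 and Tox were themselves lower in KO. This ranking describes 6 arrays that share genotype and processing.

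**Figure D5:**
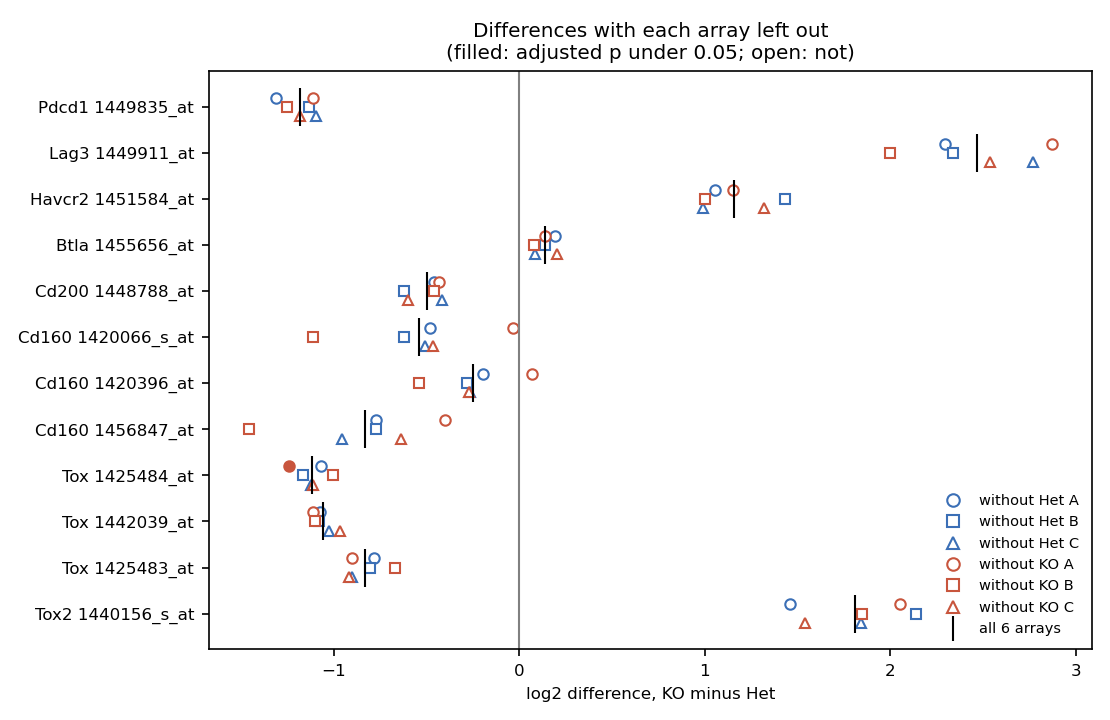
Log2 difference, KO minus Het, of each probe set with 1 array left out; colour gives the genotype and shape the letter of the array left out, the black bar is the value with all 6 arrays, and filled symbols passed an adjusted p of 0.05. The Pdcd1 and Tox differences stay below -0.6 whichever array is left out, while 1 symbol (Tox without KO A) is filled.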

How the data were processed

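Total RNA was amplified and biotin-labelled, per the labels' protocols, and the intensity of each probe set was deposited by the authors after GCRMA normalization, per the labels. GCRMA estimates background from the bases of each probe, scales arrays to one another and combines probes into probe sets. Dim values end near a floor, and folds of genes dim in 1 group can be inflated. The values are linear, judged from their range, so log2 was taken. Software versions of these steps are not given in the sources used here.

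From 45101 probe sets, 64 controls and 1 with a missing value were dropped. A log2 intensity above 4 on 3 or more arrays was required, and the 29507 that met this were fitted together with limma 3.58.1 in R 4.3.3 (KO against Het, no covariates, two-sided, Benjamini-Hochberg over all of them, threshold 0.05). Intervals are the fit's 95% intervals, unadjusted. Of the 12 tested probe sets of the listed genes 11 passed the filter on all 6 arrays and the dimmest Cd160 one on 5. Symbols came from the platform annotation (34958 probe sets with 1 symbol, 932 with several, not used), and all 8 genes matched RefSeq by identifier. Other pathway genes were read on their brightest probe set, naming those past the threshold and otherwise up to 3 per list by smallest p; a few more were named for their roles with their values known. Ranks of the probe sets within arrays were not used. The genes, lists and alternatives were chosen with earlier results of these data known. The fit was tested on simulated data. Plots were drawn with matplotlib 3.10.9.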

Additional observations from a re-analysis of the deposited data

How the results depend on the processing

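Each of the 12 probe sets was refitted under 16 alternatives: 3 other filters on dim probe sets, quantile normalization, median centring, an offset of 32 before log2, the replicate letter as a block, an intensity trend, array weights, each array left out, and both B arrays left out. Of 191 such values 190 kept their direction. The exception was Cd160 on 1420396_at, whose difference ran from -0.54 to 0.072 over the fits without 1 array and was positive without KO A. The filter at a log2 of 6 removed Cd160 on 1456847_at, so that value has no counterpart. The 9 probe sets that were not called stayed so under all alternatives, and Pdcd1 and the 2 brighter Tox probe sets stayed called under all filters, scalings, the offset, the trend and array weights. With all 6 arrays 525 probe sets were called. The number was 957 with array weights, 0 to 176 without 1 array, and 0 by limma both with the replicate block and without both B arrays (5365 and 5274 by unadjusted p). Of the listed genes' probe sets limma called 0 to 1 without 1 array and 0 with the replicate block or without both B arrays (8 and 10 by unadjusted p under 0.05). The count of pathway genes called, 3 with all arrays, was 5 with array weights and 4 when all probe sets of a gene were averaged. It was 0 by limma with the replicate block, without both B arrays and without any 1 array (20, 19 and 15 to 21 by unadjusted p under 0.05). Over all probe sets tested, 5365, 5274 and 4227 to 5454 had an unadjusted p under 0.05 in these fits (limma). The cause of the changes with array weights and with the block was not tested. With no filter the adjusted p of Egr2 was 0.0558. Arrays of the same letter deviated from their group means with correlations of 0.283 (A), -0.171 (B) and 0.012 (C). Between arrays of different letters the correlations ran from -0.451 (Het C with KO A) to 0.374 (Het C with KO B). With so few arrays these values cannot decide whether the letters pair the arrays, and the labels do not say. The block is given for completeness. Its adjusted p was 0.0892 for Pdcd1 and 0.0892 and 0.100 for Tox. With the offset the Lag3 difference was 2.28 and that of Havcr2 1.01. The dim Tox2 probe set and Cd160 on 1420067_at were below the filter and were not refitted.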

Other observations

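Ptpn2, the gene of a phosphatase that dampens antigen receptor and cytokine signals, differed between its probe sets, a feature singled out after its values were seen. Its brightest probe set read 6952, 6823 and 6533 on Het arrays A to C against 6408, 7132 and 6966 on the KO arrays (log2 0.01, limma adjusted p = 0.946). A dimmer one (1425198_at) read 133.3, 150.8 and 137.3 (Het) against 271.5, 285.9 and 295.3 (KO), a log2 difference of 1.02 ± 0.09 (SE, n = 3; adjusted p = 0.0191). Another, also dim, gave 0.99 (adjusted p = 0.192) and the last 0.02 (adjusted p = 0.941). The dim probe set that passed, 1425198_at, was the 1 of 4 called probe sets among the 120 tested for the pathway genes that did not stand for its gene. Over all 29507 probe sets tested 525 were called. Which transcripts these probe sets detect was not tested.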
